A study of Mus musculus with 12 samples.

Results

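The 10 genes described here encode the enzymes of the methionine cycle and of the transsulfuration branch that leads from it to cysteine, with spermidine synthase, which draws on the cycle for polyamines, and the enzyme that oxidises cysteine. They were taken from the deposited table by their gene symbols. The members are Mat1a, Mat2a, Mat2b, Gnmt, Ahcy, Bhmt, Cbs, Cth, Cdo1 and Srm, 10 of 24296 gene symbols. All 10 were found, on 43 transcript entries, and all 10 were among the 13158 symbols with a mean of at least 0.5 FPKM over the livers, which were the symbols tested. FPKM are fragments per kb of transcript and per M (mega) fragments sequenced, and the FPKM of all transcripts of a symbol were summed for each liver.

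Liver RNA of male C57/BL6N mice was sequenced to ask how phloridzin, a plant flavonoid glucoside, acts on liver fibrosis. Fibrosis was brought about by carbon tetrachloride, a solvent that is toxic to hepatocytes. There were 4 groups of 3 livers, each liver from a mouse of its own. The control group is labelled WT and received no carbon tetrachloride. The model group received carbon tetrachloride in olive oil into the peritoneum, 5 mL/kg and 2 times a week for 8 weeks. The silibinin group received the same and, from week 5, silibinin, a flavonolignan used in liver disease and the reference drug of the study. The phloridzin group received the same and, from week 5, phloridzin at the high dose of 40 mg/kg. The depth read from the steps of the FPKM values was 83.7 to 111 M fragments per liver.

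In the methionine cycle, methionine adenosyltransferase joins methionine and ATP to S-adenosylmethionine, the methyl donor of the cell. Methyl transfer leaves S-adenosylhomocysteine, which is hydrolysed to homocysteine, and homocysteine is either methylated back to methionine or passed through cystathionine to cysteine, which feeds glutathione, taurine and sulfate. Mat1a is the form of the adult hepatocyte, while Mat2a is the form of most other cells and of growing or injured liver, and the change from the former to the latter is a known feature of liver disease.

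The phloridzin liver of replicate 1 stood apart from the others of its group. Its mean correlation with the other two, taken across genes, which are not independent replicates, was 0.920, against 0.936 and 0.934 for the livers of replicates 2 and 3.

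In model against control, 2 of the 10 members were higher and 3 were lower at an adjusted p under 0.05 (limma with Benjamini-Hochberg adjustment over the 13158 symbols). Of all symbols, 31.1% were higher and 3.8% were lower by the same rule. The members that rose were Mat2a and Srm, and those that fell were Mat1a, Cth and Cdo1. In silibinin against model, Cdo1 and Cth rose and Srm fell, 2 higher and 1 lower, where 2.62% of all symbols were higher and 11.4% were lower. The same 3 members passed in phloridzin against model, again 2 higher and 1 lower, where 2.5% of all symbols were higher and 10.4% were lower. Both drug comparisons share the model livers. In phloridzin against silibinin 0 members passed in limma, 0 had an unadjusted p under 0.05, and 0 passed in voom on the recovered fragments. Of all symbols in that comparison, 0.0076% were higher and 0.0152% were lower. Against control, Srm was lower in the silibinin group, 0 members higher and 1 lower, where 4.59% of all symbols were higher and 0.433% were lower. In phloridzin against control 0 members passed in limma, where 7.51% of all symbols were higher and 0.479% were lower.

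The median log2 fold change of all symbols was 0.34 in model against control, -0.15 in silibinin against model and -0.11 in phloridzin against model, and it was 0.16 and 0.18 for the drug groups against control. With the livers scaled by their median ratio these medians were -0.01, 0.01, 0.03, -0.03 and -0.03. The calls then split into 1642 higher and 1660 lower in model against control, in place of 4094 and 500. They split into 734 higher and 831 lower in silibinin against model, in place of 345 and 1504, and into 613 and 809 in phloridzin against model, in place of 329 and 1362. Against control they split into 401 and 189 for silibinin, in place of 604 and 57, and into 534 and 249 for phloridzin, in place of 988 and 63. The median over the 10 members was -0.24 in model against control, 0.31 in silibinin against model and 0.31 in phloridzin against model, and -0.71, 0.53 and 0.49 with median ratio scaling. With median ratio scaling the 5 members that passed in model against control kept their direction and their call, and Ahcy passed as well, at -1.06 (adjusted p = 0.036).

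**Figure D1:**
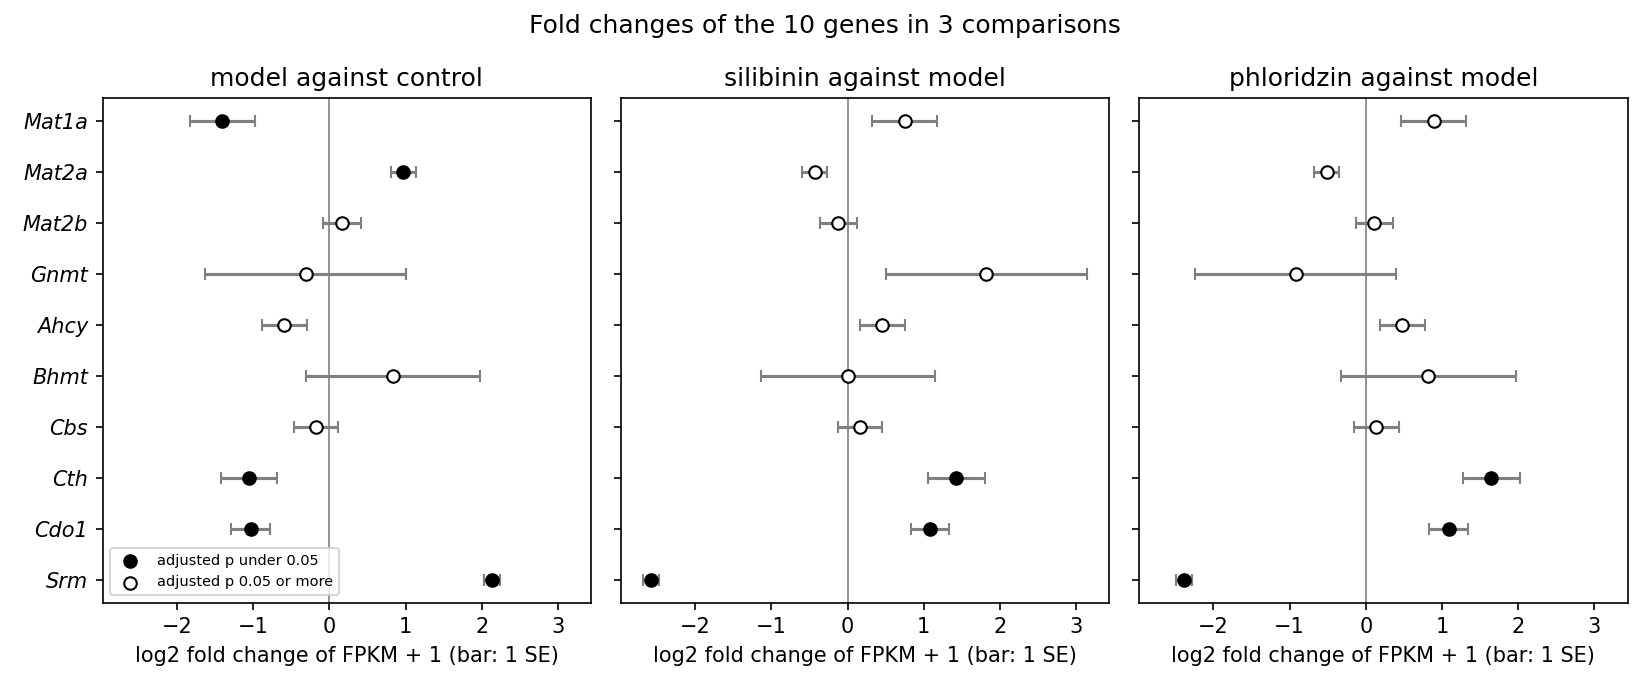
Log2 fold change of summed FPKM + 1 for each of the 10 genes (points) with 1 SE (bars) in 3 comparisons, filled where the limma adjusted p is under 0.05. Srm lies at 2.14, -2.58 and -2.39, Cth and Cdo1 lie below 0 in the left panel and above 0 in the other two, and the bars of Gnmt and Bhmt are the widest of the 10.

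The levels of the 10 genes, compared per length, spanned a wide range in the control livers. Mat1a was the most abundant at 2226 ± 158 (SD, n = 3) FPKM, followed by Ahcy at 885 ± 194 (SD, n = 3) and Cdo1 at 744 ± 31.3 (SD, n = 3). The ranges of Ahcy and Cdo1 overlapped, and those of Gnmt and Bhmt were so wide that their place in the order could not be set. Cth was at 341 ± 68.6 (SD, n = 3) FPKM and Cbs at 64.1 ± 6.86 (SD, n = 3), and their ranges did not overlap. The lowest were Mat2b at 12.1 ± 2.74 (SD, n = 3), Srm at 9.36 ± 0.732 (SD, n = 3) and Mat2a at 7.51 ± 1.05 (SD, n = 3) FPKM.

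**Figure D2:**
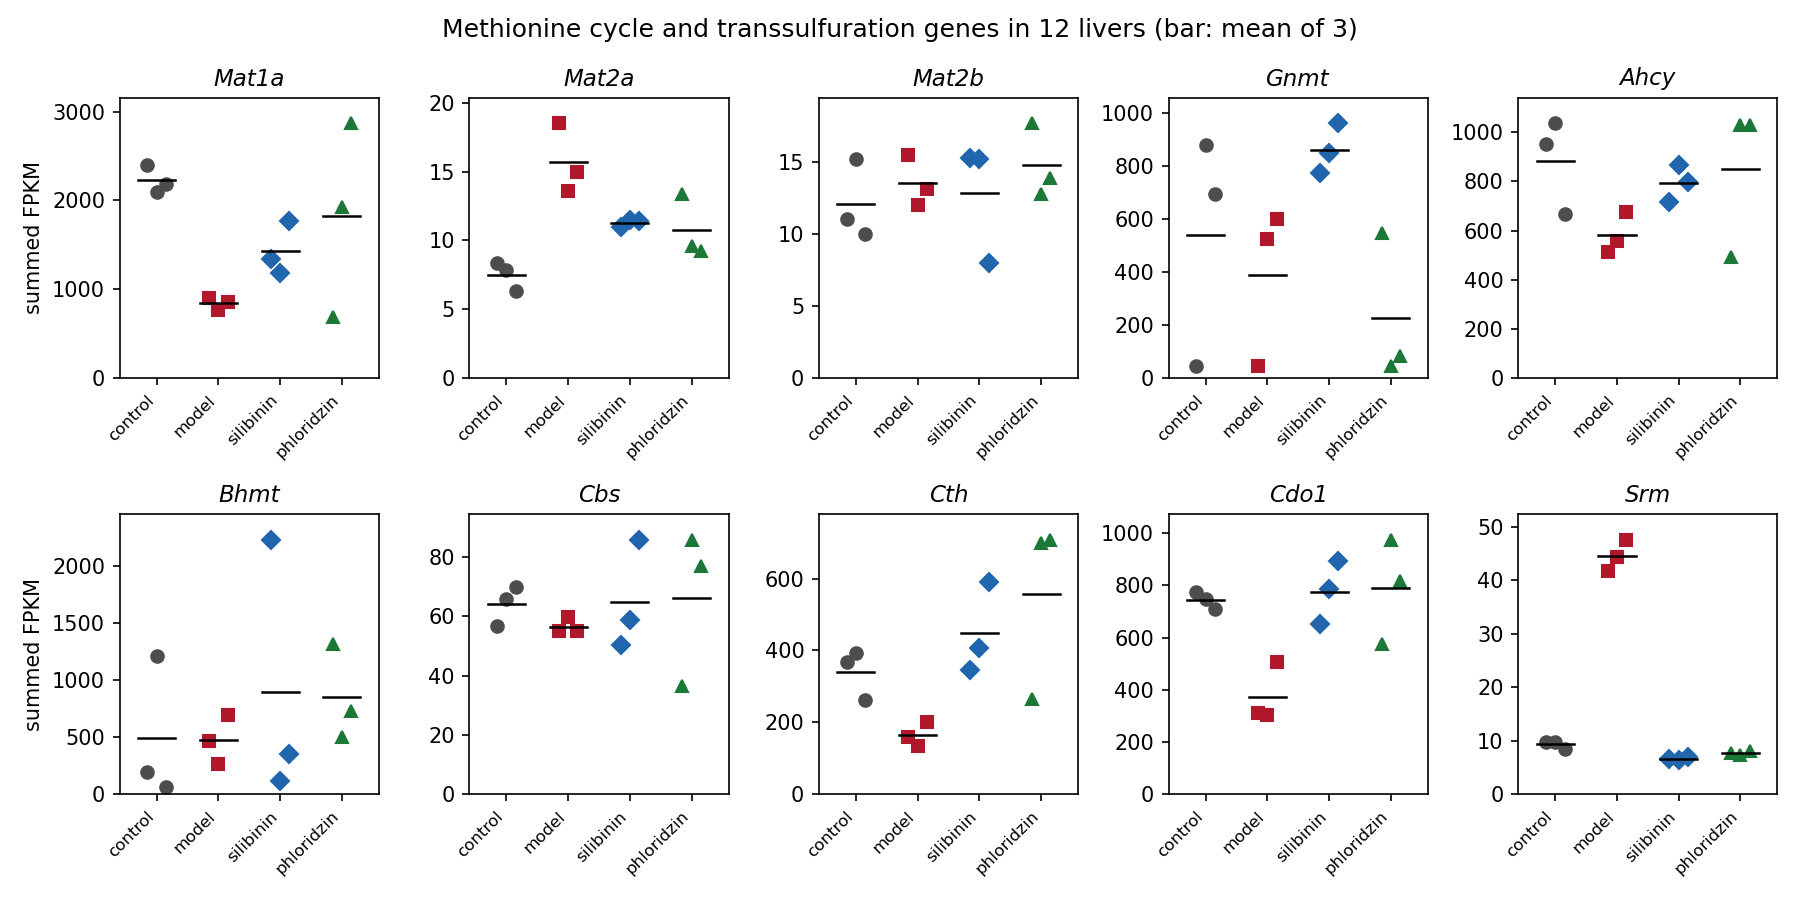
Summed FPKM of each gene in each of the 12 livers (points, by group, each panel with its own axis from 0) and the mean of 3 (bars). Srm is between 41.7 and 47.6 FPKM in the model livers and under 10 elsewhere, Mat1a is between 764 and 898 in the model livers, and Gnmt falls into values up to 82.5 and values from 524 within the control, model and phloridzin groups.

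Mat1a (ENSMUSG00000037798, chr14:41105035-41124412, plus strand, in mm10) and Mat2a (ENSMUSG00000053907, chr6:72432799-72439558, minus strand) encode the catalytic subunits. Their coding sequences of 1188 and 1185 bases, without the stop codon, are identical at 866 of 1185 aligned bases, or 73.1%, and their longest shared run is 15 bases in GENCODE M21. The 3′ UTR of Mat2a is known to hold hairpins that METTL16, an RNA methyltransferase, binds, and through which S-adenosylmethionine is known to control splicing of the last Mat2a intron and the stability of the RNA. They are shown because Mat2a was the methionine adenosyltransferase gene that rose. A search for a 9-base pattern taken from their known motif, with 1 base left free in the search, found 6 matches on the sense strand in the 1494 bases of the 3′ UTR of the fully spliced transcript, all on chromosome 6, minus strand, in GRCm38, with the 9 bases in capitals.
Mat2a site 1, chr6:72434238-72434261: gcgtaggtTACAGAGAAgccttca
Mat2a site 2, chr6:72433454-72433477: ttgtgataTACAGAGAAgtcacag
Mat2a site 3, chr6:72433275-72433298: ggtgtagcTACAGAGAAaccagct
Mat2a site 4, chr6:72433160-72433183: ggcgtaagTACAGAGAAgccatca
Mat2a site 5, chr6:72433049-72433072: aggtgtccTACAGAAAAaccttgg
Mat2a site 6, chr6:72432941-72432964: tggtgtggTACAGAGAAgccagct

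Of 7482 other genes with a 3′ UTR at least as long, 428, or 5.72%, held at least 1 match in its first 1494 bases, and 0 held 6. A match is a description of the letters and no measure of binding. The pattern came from the motif of the Mat2a hairpins themselves, so the comparison with other genes is no test of Mat2a.

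The summed level of Mat1a was 2403, 2096 and 2181 FPKM in the control livers, 898, 764 and 858 in the model livers, 1345, 1177 and 1766 in the silibinin livers and 682, 1929.6 and 2866 in the phloridzin livers. The model livers were all below the control and silibinin livers, and the silibinin livers were all below the control livers. In the phloridzin group replicate 1 was below every model liver and replicate 3 above every control liver. Mat1a fell in model against control, with a log2 fold change of -1.41 ± 0.43 (SE, adjusted p = 0.027), the model mean being 0.377 times the control mean. Without any 1 of the 6 control or model livers the adjusted p of limma was 0.055 to 0.075, and without the phloridzin liver of replicate 1 it was 0.001. With no filter on low values Mat1a did not pass either, at an adjusted p of 0.063. The log2 fold change was 0.75 (adjusted p = 0.28) in silibinin against model and 0.89 (adjusted p = 0.20) in phloridzin against model, neither of which passed the test in limma. Without the phloridzin liver of replicate 1 these values were 0.75 (adjusted p = 0.040) and 1.49 (adjusted p = 0.0037).

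Mat2a was at 8.37, 7.81 and 6.34 FPKM in the control livers, 18.5, 13.6 and 14.99 in the model livers, 10.95, 11.5 and 11.4 in the silibinin livers and 13.4, 9.62 and 9.25 in the phloridzin livers. Every model liver lay above every other liver. Both drug groups lay between the control and the model livers, above the former and below the latter. Mat2a rose in model against control by 0.97 ± 0.16 (SE, adjusted p = 0.0016) on the log2 scale, with a model mean 2.09 times the control mean. Under median ratio scaling the value was 0.54 (adjusted p = 0.016). The log2 fold change was -0.43 (adjusted p = 0.11) in silibinin against model and -0.51 (adjusted p = 0.066) in phloridzin against model. Neither passed in limma, and voom on the recovered fragments, an alternative chosen after the values were seen, gave -0.72 (adjusted p = 0.045) and -0.95 (adjusted p = 0.017). For phloridzin against model the transcript with the highest mean alone also passed, at -0.90 (adjusted p = 0.031), as did protein-coding transcripts only, at -0.93 (adjusted p = 0.016). For silibinin against model these gave -0.65 (adjusted p = 0.094) and -0.67 (adjusted p = 0.056). Median ratio scaling went the other way, to -0.23 (adjusted p = 0.32) and -0.34 (adjusted p = 0.13), so a fall of Mat2a with either drug depends on the processing. Without the phloridzin liver of replicate 1, phloridzin against model was at -0.67 (adjusted p = 0.017). In silibinin and phloridzin against control the log2 fold change was 0.54 (adjusted p = 0.087) and 0.46 (adjusted p = 0.11). The former passed without the phloridzin liver of replicate 1, at 0.54 (adjusted p = 0.038), and was 0.31 (adjusted p = 0.22) with median ratio scaling.

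The ratio of Mat1a to Mat2a brought the genes together in each liver. On the log2 scale it was 8.16, 8.07 and 8.43 in the control livers, 5.60, 5.81 and 5.84 in the model livers, 6.94, 6.68 and 7.27 in the silibinin livers and 5.67, 7.65 and 8.28 in the phloridzin livers. The control and model livers were far apart, the silibinin livers lay between them without overlap, and the phloridzin livers ran from the range of the model to that of the control. An exact permutation test of the F statistic over the 4 groups (369600 arrangements) gave p = 0.026. The mean of the model group minus that of the control group was -2.47. The mean was higher by 1.21 in silibinin and by 1.45 in phloridzin than in model. For these pairs the exact two-sided permutation test gave p = 0.1, 0.1 and 0.3, where 0.1 is the smallest p that 3 against 3 livers can give. Without any 1 of the control or model livers the exact p of the 4 groups was 0.051 to 0.061, and without the phloridzin liver of replicate 1 it was 0.00039. Mat1a exceeded Mat2a in every liver, and Mat2a made up 0.336 ± 0.0419% (SD, n = 3) of the FPKM of both in the control group and 1.83 ± 0.166% (SD, n = 3) in the model group. On this percent scale the same exact permutation test over the 4 groups gave p = 0.051, which does not pass.

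**Figure D3:**
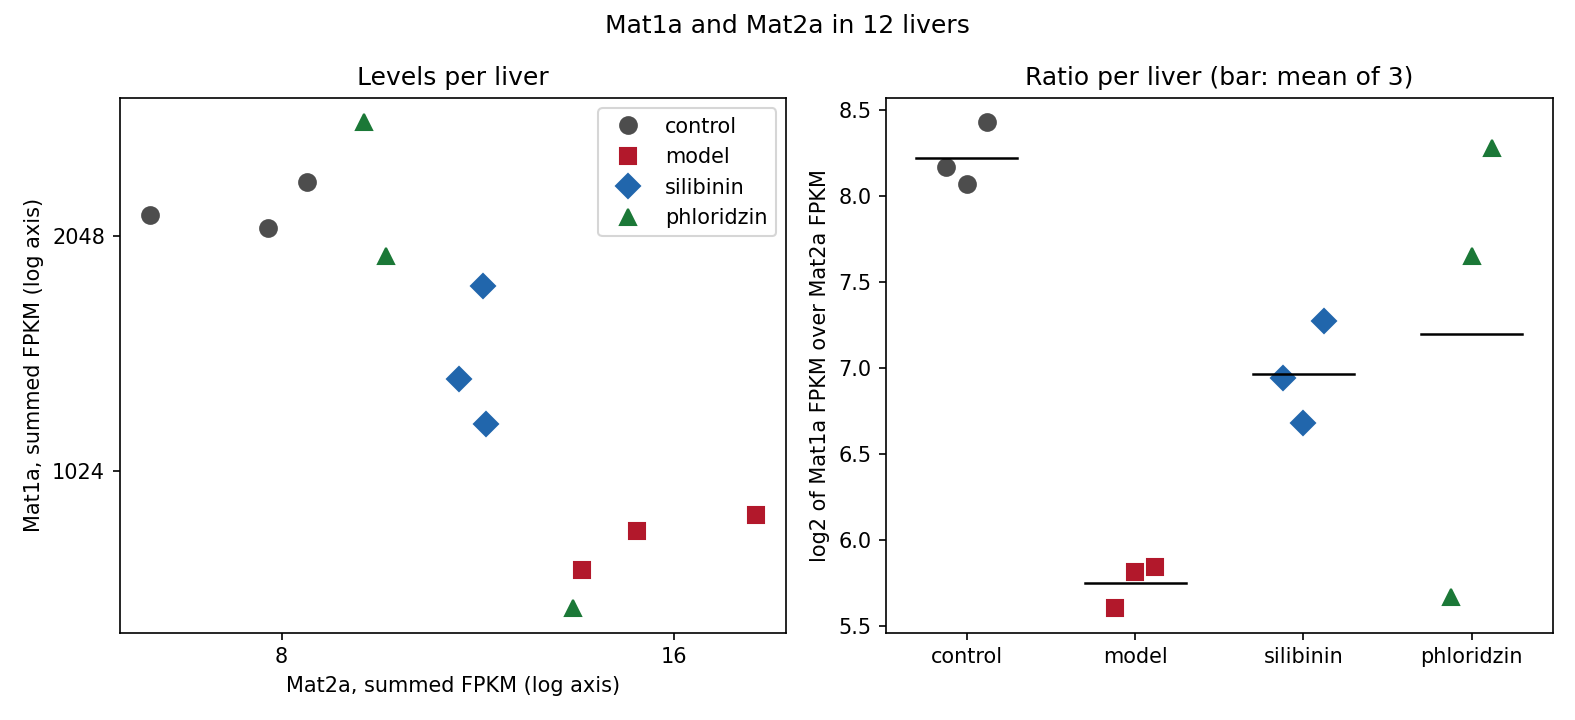
Left, summed FPKM of Mat1a against Mat2a in each of the 12 livers (points, by group), both axes logarithmic. Right, log2 of the Mat1a to Mat2a ratio by group with the mean of 3 (bars): the control livers lie at 8.07 to 8.43, the model livers at 5.60 to 5.84, and the phloridzin livers at 5.67 to 8.28.

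How the FPKM of Mat2a was divided among its 9 transcript entries could be read only in part. The fully spliced transcript (ENSMUST00000059472, 2804 bases) was worth 1 fragment in every liver, within 0.0014 of a fragment. The full-length signal stood on ENSMUST00000205335 (3387 bases), which keeps the last intron (chr6:72434396-72434980, 585 bases) and which GENCODE lists as protein-coding. That entry held 823 to 3255 fragments per liver. The transcripts listed with a retained intron, 3 in number, lie 5′ of the last intron. Their share of the FPKM of Mat2a was 51.6, 45.7 and 55.8% in the control livers, 37.3, 35.6 and 32.4% in the model livers, 57.1, 43.6 and 39.4% in the silibinin livers and 57.2, 46.4 and 58.8% in the phloridzin livers. The model livers were all below the other 9. In FPKM the 3 entries together were at 4.32, 3.57 and 3.54 in the control livers and 6.91, 4.84 and 4.86 in the model livers, all above control. The entry that keeps the last intron was at 3.601, 3.76 and 2.22 in the control livers and 10.4, 8.41 and 9.60 in the model livers. In these FPKM the 3 entries were higher in model, and the entry that keeps the last intron was higher by more. The entries were not compared with median ratio scaling, under which the rise of the Mat2a sum was smaller. For the share of the 3 entries the exact permutation test over the 4 groups gave p = 0.034. For model and control its exact permutation p was 0.1, the smallest possible. Leaving out replicate 1 or 3 of control, any model liver, or replicate 1 or 3 of phloridzin ended the former, at an exact p of 0.059 to 0.11. With the entry that keeps the last intron also counted, the share was 93.1% in control and 95.9% in model, so the direction turned. For that share the exact permutation test over the 4 groups gave p = 0.026. The model and control livers overlapped in it, with an exact permutation p of 0.3 for the pair. Whether the last intron is retained more or less often cannot be read from these values.

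Mat2b (ENSMUSG00000042032, chr11:40679314-40695203, minus strand) encodes the regulatory subunit that binds the Mat2a enzyme. Its sum was 7.95 to 17.7 FPKM over the 12 livers, and its log2 fold change was 0.17 (adjusted p = 0.63) in model against control. That direction turned with median ratio scaling, at -0.27 (adjusted p = 0.35). The sum was made up chiefly of a pair of protein-coding transcripts with different start sites, which were singled out after their values were seen and were not tested. The longer, ENSMUST00000101347 (chr11:40679314-40695203), was at 4.33, 9.14 and 5.61 FPKM in the control livers and 3.76, 1.18 and 4.15 in the model livers. The shorter, ENSMUST00000040167 (chr11:40679314-40692774), was at 4.70, 3.01 and 2.86 FPKM in the control livers and 8.21, 8.64 and 7.05 in the model livers. The shorter form thus made up 42.5, 19.8 and 28.7% of Mat2b in the control livers and 52.9, 71.8 and 53.8% in the model livers. In the silibinin livers its share was 19.5, 22.8 and 43.1%, and in the phloridzin livers 51.0, 44.8 and 30.9%.

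Gnmt (ENSMUSG00000002769, chr17:46725664-46729168, minus strand) encodes glycine N-methyltransferase, which uses up surplus S-adenosylmethionine in hepatocytes. It was at 43.2, 879.6 and 695 FPKM in the control livers, 43.9, 524 and 602 in the model livers, 773, 848 and 960.4 in the silibinin livers and 548, 44.6 and 82.5 in the phloridzin livers. The livers fell into low values, up to 82.5 FPKM, and high values, from 524 FPKM, within the control, model and phloridzin groups alike, and the silibinin livers were all high. The log2 fold change was -0.31 ± 1.32 (SE, adjusted p = 0.87) in model against control, 1.82 ± 1.32 (SE, adjusted p = 0.40) in silibinin against model and -2.75 ± 1.32 (SE, adjusted p = 1) in phloridzin against silibinin, none of which passed in limma. Among 615 transcripts that the authors' assembly added and that exceed 60 FPKM in some liver, the transcript with the most negative correlation with the main Gnmt transcript was looked for after the values were seen, so that its opposite course was fixed by the choice. Summed with the other 5 of the same assembled group, none with a gene name, it was at 320.3, 8.98 and 6.44 FPKM in the control livers, 137, 4.66 and 5.72 in the model livers, 6.79, 7.78 and 7.05 in the silibinin livers and 6.998, 409 and 279.9 in the phloridzin livers. The short Gnmt transcript with a retained intron was at 8.46 to 30.6 FPKM. Whether reads of Gnmt were given to the unnamed transcripts in some livers was not tested.

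**Figure D4:**
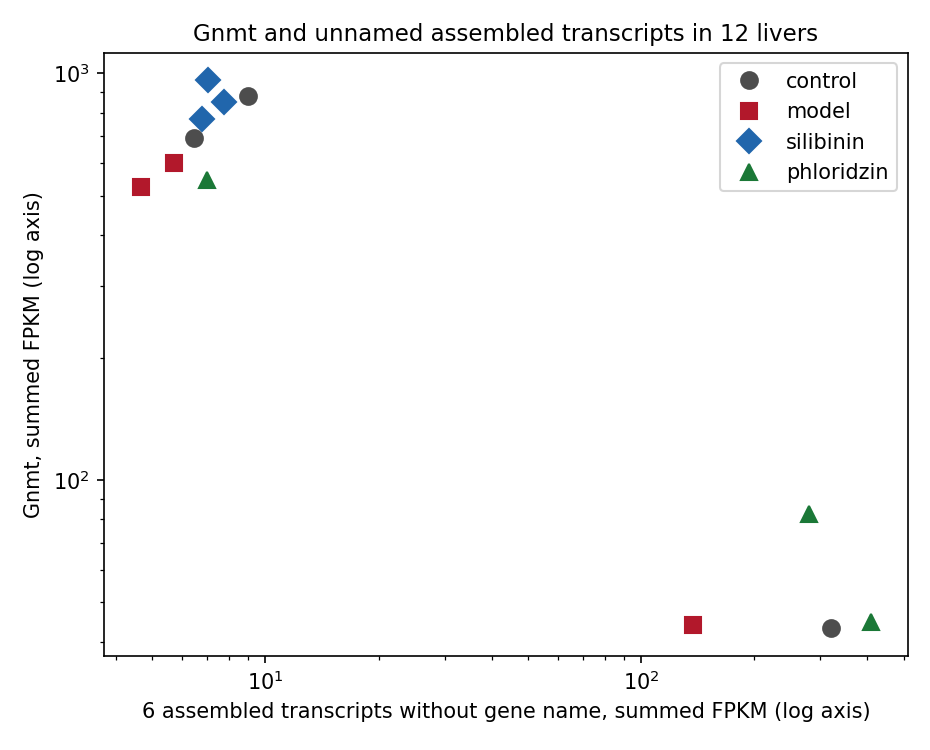
Summed FPKM of Gnmt against the summed FPKM of 6 assembled transcripts with no gene name, in each of the 12 livers (points, by group), both axes logarithmic. The latter were chosen because 1 of them ran most strongly against Gnmt. In 4 livers Gnmt is at 43.2 to 82.5 FPKM and the unnamed transcripts at 137 to 409, and in the other 8 Gnmt is at 524 to 960.4 and the unnamed transcripts at 4.66 to 8.98.

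Ahcy (ENSMUSG00000027597, chr2:155059310-155074497, minus strand) encodes the hydrolase that clears S-adenosylhomocysteine. It was at 953, 1036 and 666 FPKM in the control livers, 513, 556 and 675 in the model livers, 717, 867 and 799 in the silibinin livers and 492, 1029 and 1029 in the phloridzin livers. The control and model livers overlapped by 1 liver of each group, the silibinin livers were all above the model livers, and the phloridzin liver of replicate 1 was below every other liver. The log2 fold change was -0.59 ± 0.29 (SE, adjusted p = 0.14) in model against control, 0.45 (adjusted p = 0.35) in silibinin against model and 0.48 (adjusted p = 0.33) in phloridzin against model. None of them passed in limma. Without the phloridzin liver of replicate 1, Ahcy passed in model against control at -0.59 (adjusted p = 0.038) and in phloridzin against model at 0.83 (adjusted p = 0.031).

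Bhmt (ENSMUSG00000074768, chr13:93616675-93637961, minus strand) encodes the liver enzyme that methylates homocysteine with betaine. Its sum was 197, 1217 and 63.6 FPKM in the control livers, 469.8, 267 and 697 in the model livers, 2234, 112 and 353 in the silibinin livers and 1319, 506 and 730.2 in the phloridzin livers. The groups overlapped in every pair, and the highest of the 12 livers was 35.1 times the lowest. The log2 fold change was 0.83 ± 1.14 (SE, adjusted p = 0.60) in model against control, and 0.01 and 0.82 for the drugs against model. No difference in Bhmt could be detected at this spread. The same search among the 615 assembled transcripts, again for the most negative correlation, gave for Bhmt a transcript at 52.2, 0 and 517 FPKM in the control livers, 0, 121 and 16.2 in the model livers, 0, 25.7 and 0 in the silibinin livers and 0, 0 and 0 in the phloridzin livers. Whether it holds reads of Bhmt was not tested.

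Cbs (ENSMUSG00000024039, chr17:31612623-31637199, minus strand) and Cth (ENSMUSG00000028179, chr3:157894248-157925077, minus strand) encode the enzymes that join homocysteine to serine and then cleave cystathionine to cysteine. Cbs, which is activated by S-adenosylmethionine, was at 36.5 to 85.8 FPKM over the 12 livers and overlapped between every pair of groups. Its log2 fold change was -0.18 ± 0.29 (SE, adjusted p = 0.67) in model against control and did not pass in limma in any of the 6 comparisons.

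Cth was at 367, 392 and 263 FPKM in the control livers, 158, 133 and 199 in the model livers, 345, 407 and 591 in the silibinin livers and 264, 698 and 708 in the phloridzin livers. Every model liver lay below every other liver, and the phloridzin liver of replicate 1 lay far below replicates 2 and 3. Cth fell in model against control by a log2 fold change of -1.05 ± 0.37 (SE, adjusted p = 0.049), close to the threshold. It passed in 9 of 22 alternative settings in that comparison, with an adjusted p of limma from 0.0075 to 0.14. It rose in silibinin against model by 1.43 ± 0.37 (SE, adjusted p = 0.029) and in phloridzin against model by 1.65 ± 0.37 (SE, adjusted p = 0.017). Without replicate 1 or 2 of the model or replicate 2 or 3 of the drug group concerned, Cth did not pass, at an adjusted p of limma of up to 0.10 for silibinin and 0.070 for phloridzin. With no filter on low values the former was at 0.053. With only the compared groups in the fit phloridzin against model gave 1.65 (adjusted p = 0.079).

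Cdo1 (ENSMUSG00000033022, on chromosome 18) encodes cysteine dioxygenase, which commits cysteine to taurine and sulfate. It had 1 transcript entry. Cdo1 was at 773, 747 and 711 FPKM in the control livers, 312, 302 and 505 in the model livers, 651, 785 and 892 in the silibinin livers and 577, 975 and 816 in the phloridzin livers. The model livers were again all below every other liver, and the control, silibinin and phloridzin livers overlapped. Cdo1 fell in model against control by a log2 fold change of -1.03 ± 0.25 (SE, adjusted p = 0.010) in that comparison. It rose in silibinin against model by 1.08 ± 0.25 (SE, adjusted p = 0.017) and in phloridzin against model by 1.09 ± 0.25 (SE, adjusted p = 0.019). Without replicate 1 or 2 of the model, or replicate 2 or 3 of the drug group concerned, Cdo1 did not pass, at an adjusted p of limma of up to 0.070 for silibinin and 0.078 for phloridzin. With only the compared groups in the fit the latter was 1.09 (adjusted p = 0.098). The log2 ratio of Cdo1 to Cth was 1.15 in control and 1.17 in model, so that the mean difference of 0.02 was under the SD of either group. It was 0.82 in the silibinin and 0.60 in the phloridzin group, and the exact permutation test over the 4 groups gave p = 0.14.

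Srm (ENSMUSG00000006442, chr4:148591503-148594993, plus strand) encodes spermidine synthase, which adds the aminopropyl group of decarboxylated S-adenosylmethionine to putrescine. It was at 9.79, 9.78 and 8.52 FPKM in the control livers, 41.7, 44.4 and 47.6 in the model livers, 6.62, 6.33 and 6.87 in the silibinin livers and 7.75, 7.26 and 8.09 in the phloridzin livers. The model livers stood far above all the others, and the spread within each group was small. Srm rose in model against control by a log2 fold change of 2.14 ± 0.10 (SE, adjusted p = 2.09e-06), with a model mean 4.76 times the control mean. It fell by 2.58 ± 0.10 (SE, adjusted p = 1.48e-06) on the log2 scale in silibinin against model and by 2.39 ± 0.10 (SE, adjusted p = 2.19e-06) in phloridzin against model.  Both drug groups lay below the control livers, and the log2 fold change against control was -0.44 (adjusted p = 0.039) for silibinin and -0.25 (adjusted p = 0.17) for phloridzin. The former call was lost in 13 of the alternatives, and the latter passed with median ratio scaling, at -0.51 (adjusted p = 0.028). The silibinin livers were all below the phloridzin livers, with a log2 fold change of 0.19 (adjusted p = 1) in phloridzin against silibinin and a 95% interval of -0.04 to 0.42.

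For the other members that differed between model and control, the difference of the drugs was measured with wide intervals. In phloridzin against silibinin the 95% interval of the log2 fold change was -0.80 to 1.09 for Mat1a, -0.44 to 0.28 for Mat2a, -0.61 to 1.04 for Cth and -0.55 to 0.56 for Cdo1. Silibinin and phloridzin were given at different doses, and these intervals do not show that they act alike.

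The genes around the cycle were taken from 7 lists with 53 genes, of which 51 were tested. In model against control 12 of the 51 were higher and 5 lower, in silibinin against model 2 were higher and 6 lower, and in phloridzin against model 4 were higher and 6 lower. Of all symbols, 31.1% were higher and 3.8% lower in the first of these, 2.62% and 11.4% in the next, and 2.5% and 10.4% in the last. Median ratio scaling turned the balance of these totals in all 3, to 4 higher and 15 lower in model against control, 8 and 5 in silibinin against model and 7 and 4 in phloridzin against model. By that scaling 13079 symbols were tested, of which 1642 were higher and 1660 lower in the first comparison. The numbers were 734 and 831 in the next and 613 and 809 in the last. The scaled counts of each list below stand beside these numbers. The polyamine and cysteine lists are described first, because the products of Srm and Cth belong to them.

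Of 9 tested genes of polyamine synthesis and turnover, 4 rose and 0 fell in model against control, with a median log2 fold change of 0.23 against 0.34 over all symbols. Odc1, the ornithine decarboxylase that supplies putrescine, was at 18.4, 17.01 and 11.7 FPKM in the control livers, 28.4, 32.7 and 38.5 in the model livers, 12.7, 11.4 and 13.1 in the silibinin livers and 17.5, 14.4 and 10.8 in the phloridzin livers. It rose in the model by 1.05 ± 0.20 (SE, adjusted p = 0.0033) and fell with silibinin by 1.34 ± 0.20 (SE, adjusted p = 0.0021) and with phloridzin by 1.18 ± 0.20 (SE, adjusted p = 0.0045) on the log2 scale. Every model liver was above every other liver. Sat1, the acetyltransferase that starts polyamine breakdown, was at 18.1 ± 2.35 (SD, n = 3) FPKM in control and 54.0 ± 8.44 (SD, n = 3) in model, a log2 fold change of 1.52 (adjusted p = 0.000415). It fell with silibinin by 0.85 (adjusted p = 0.017), and its value for phloridzin was -0.48 (adjusted p = 0.14). Smox, the spermine oxidase, and Azin1, the antizyme inhibitor that keeps ornithine decarboxylase from breakdown, rose by 1.06 (adjusted p = 0.0016) and 0.71 (adjusted p = 0.040). In silibinin against model 4 of the 9 fell, and in phloridzin against model 3 fell, with 0 higher in either. With median ratio scaling the median of the 9 in model against control was -0.15, against -0.01 over all symbols, with 3 higher and 1 lower. Azin1 then did not pass in that comparison or in phloridzin against model, where 2 of the 9 fell.

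Of 9 genes of cysteine oxidation and taurine, 1 rose and 4 fell in model against control, with a median of -0.66. Got1, a transaminase that also takes cysteine sulfinate, was at 207, 153 and 102 FPKM in the control livers, 38.2, 43.6 and 69.5 in the model livers, 81.4, 94.6 and 172 in the silibinin livers and 82.3, 217 and 332 in the phloridzin livers. It fell in the model by a log2 fold change of -1.58 (adjusted p = 0.029) and rose with phloridzin by 1.87 (adjusted p = 0.032), while silibinin against model gave 1.15 (adjusted p = 0.15). Suox, the sulfite oxidase, was at 33.1 ± 3.44 (SD, n = 3) FPKM in control and 16.2 ± 5.38 (SD, n = 3) in model and fell by a log2 fold change of -1.03 (adjusted p = 0.049). Tst, the rhodanese of sulfane sulfur, fell in the model, with a log2 fold change of -0.67 (adjusted p = 0.0065) and rose with silibinin by 0.73 (adjusted p = 0.010) and phloridzin by 0.65 (adjusted p = 0.019). Ethe1, the persulfide dioxygenase, rose with phloridzin by 1.05 (adjusted p = 0.030) and was at -0.41 (adjusted p = 0.26) in model against control. In silibinin against model 2 of the 9 rose, in phloridzin against model 3 rose, and 0 fell in either. With median ratio scaling 6 were lower and 0 higher in model against control, and 4 rose with each drug. By that scaling 1660 of 13079 tested symbols were lower in model against control. Against model, 734 were higher with silibinin and 613 with phloridzin.

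**Figure D5:**
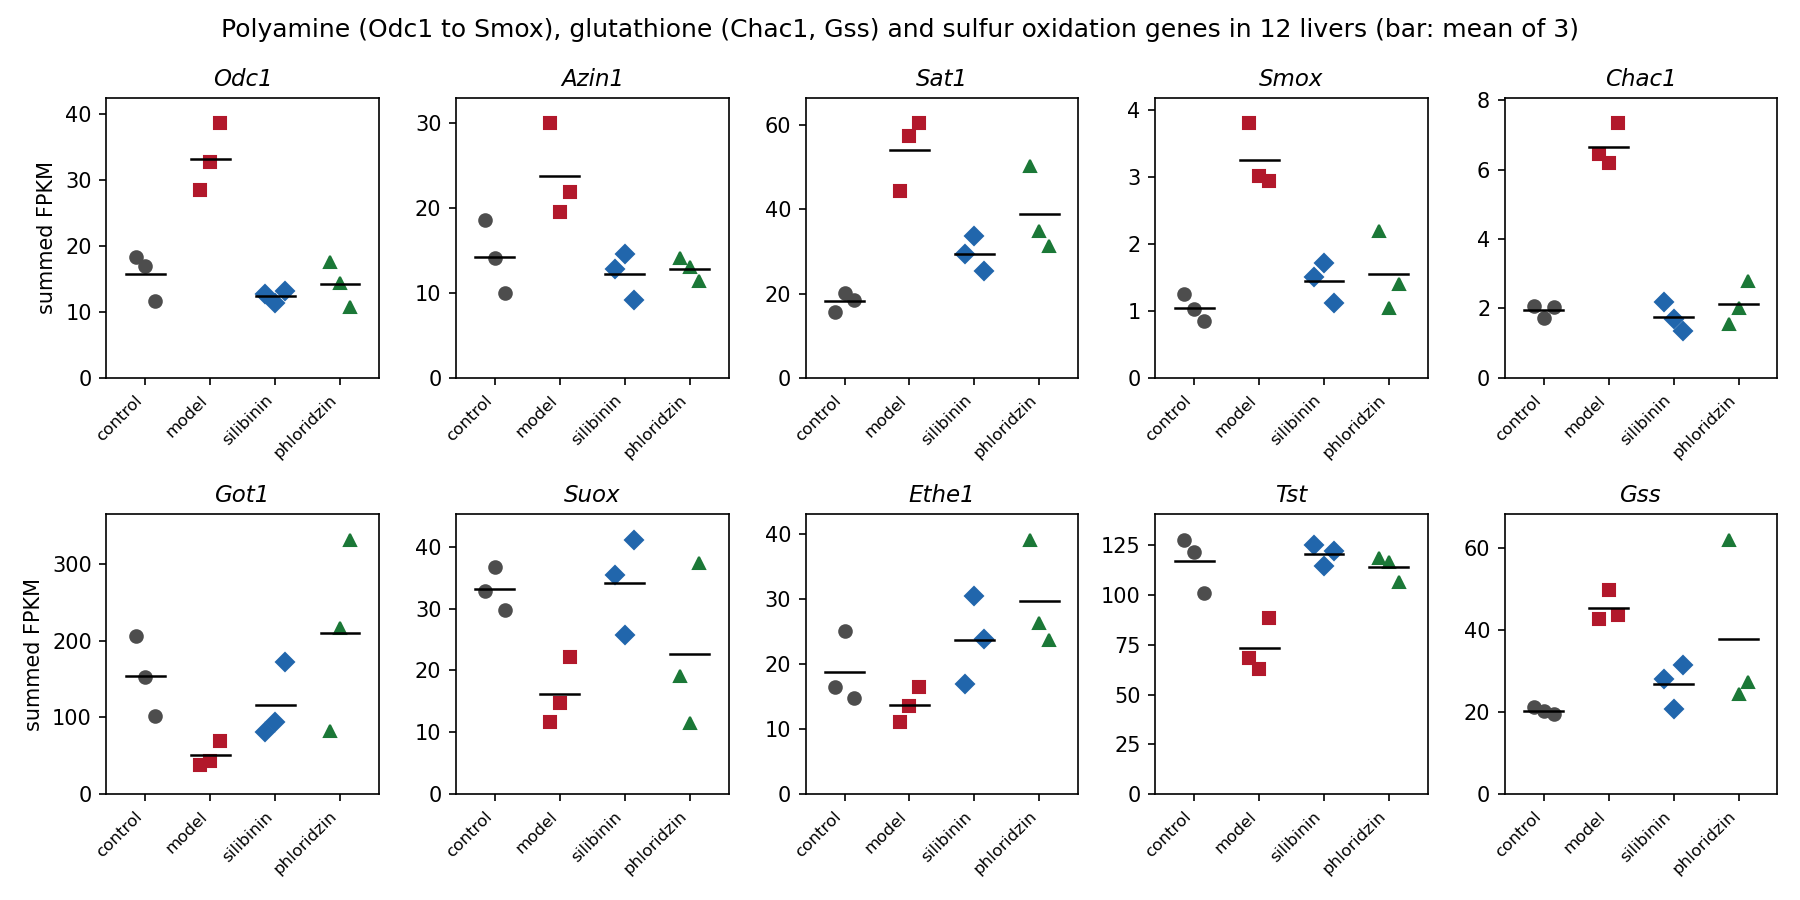
Summed FPKM of 10 genes of the polyamine, glutathione and sulfur oxidation lists in each of the 12 livers (points, by group, each panel with its own axis from 0) with the mean of 3 (bars). The model livers lie above all the others in Odc1, Azin1, Smox and Chac1 and below all the others in Got1 and Tst.

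Of 8 tested genes of glutathione synthesis and turnover, 2 rose in model against control and 0 fell. Chac1, which degrades glutathione, was at 2.07, 1.72 and 2.03 FPKM in the control livers, 6.44, 6.195 and 7.33 in the model livers, 2.19, 1.69 and 1.35 in the silibinin livers and 1.54, 2.00 and 2.80 in the phloridzin livers. It rose in the model by 1.38 (adjusted p = 0.000305) and fell with silibinin by 1.49 (adjusted p = 0.000357) and phloridzin by 1.31 (adjusted p = 0.000841), the only gene of this list to pass in the drug comparisons. Gss, the glutathione synthetase, rose in the model by 1.12 (adjusted p = 0.014), and with median ratio scaling it did not pass, when 1 of the 8 was higher and 1 was lower.

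Of 8 genes whose enzymes use S-adenosylmethionine, 3 rose and 1 fell in model against control, and 0 passed with either drug against model. Inmt, Hnmt and Tpmt, the methyltransferases of indoleamines, histamine and thiopurines, rose by 1.2 (adjusted p = 0.023), 1.2 (adjusted p = 0.049) and 0.84 (adjusted p = 0.045), and As3mt, which methylates arsenic, fell by 0.70 (adjusted p = 0.0024). With median ratio scaling 0 of the 8 were higher and 2 were lower, so the rise of the former 3 depends on the scaling. In silibinin against model 2 of the 8 then rose and in phloridzin against model 1 rose, As3mt among them in each. Of 8 genes of methionine regeneration, Mtrr, the methionine synthase reductase, rose in the model by 0.62 (adjusted p = 0.0038) and fell with silibinin by 0.55 (adjusted p = 0.015) and phloridzin by 0.58 (adjusted p = 0.013). Of 4 genes of S-adenosylhomocysteine and adenosine, Ahcyl2, a relative of Ahcy, rose in the model by 0.67 (adjusted p = 0.0065) and fell with phloridzin by 0.51 (adjusted p = 0.047). Under median ratio scaling 1 of the 8 regeneration genes and 2 of these 4 were lower in model against control and 0 of either were higher, so that neither Mtrr nor Ahcyl2 passed there. By that scaling Mtrr did not pass with silibinin either, at -0.37 (adjusted p = 0.052), and Ahcyl2 did not pass with phloridzin, at -0.35 (adjusted p = 0.095). Of 5 genes of methylthioadenosine salvage 0 passed in model against control, and Apip, a dehydratase of that route, rose with phloridzin by 0.50 (adjusted p = 0.048). Under median ratio scaling 2 of the 5 were lower in model against control and 2 rose with each drug, and Apip was at -0.67 (adjusted p = 0.0047) in model against control, 0.51 (adjusted p = 0.029) with silibinin and 0.62 (adjusted p = 0.014) with phloridzin.

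The livers are bulk samples, in which fewer cells of a type and less RNA per cell cannot be told apart, so marker genes were measured beside the members. The 7 hepatocyte markers in the table, led by Alb, summed to 15249, 22492 and 14775 FPKM in the control livers, 16659, 24571 and 28101 in the model livers, 27798, 33559.8 and 17818 in the silibinin livers and 21832, 29856 and 22233 in the phloridzin livers, and 0 of 7 passed in any of the 3 comparisons above. Alb made up most of this sum. Without Alb the sum was 4279, 6872 and 3265 FPKM in the control livers, 3476, 3986 and 4573 in the model livers, 3991, 4203 and 4216 in the silibinin livers and 2937, 6973 and 5563 in the phloridzin livers, and the control and model livers overlapped with and without it. The 8 pericentral hepatocyte markers, led by Cyp2e1, which encodes the enzyme that activates carbon tetrachloride, summed to 5209.9, 2650.0 and 4774 FPKM in the control livers, 911, 992 and 1068 in the model livers, 2341, 1450.4 and 1838 in the silibinin livers and 1391, 1104 and 1099 in the phloridzin livers. In model against control 5 of these 8 fell, in silibinin against model 3 rose and in phloridzin against model 3 rose. Of all symbols, 31.1% were higher and 3.8% lower in the first of these comparisons. In the other comparisons 2.62% and 2.5% were higher. The 8 periportal markers, led by Ass1, summed to 1872 to 5371 FPKM, and in model against control 1 rose and 1 fell. Under median ratio scaling 1 hepatocyte, 6 pericentral and 1 periportal marker were lower and 0 were higher in model against control. By that scaling 1642 of 13079 tested symbols were higher and 1660 were lower.

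Markers of other cell types were counted in model against control, where 31.1% of all symbols were higher and 3.8% were lower. The 9 markers of stellate cells and myofibroblasts, led by Dcn, summed to 88.6, 80.1 and 92.8 FPKM in the control livers, 244, 237 and 273 in the model livers, 245, 279 and 137 in the silibinin livers and 323, 194 and 170.2 in the phloridzin livers, and 7 of 9 rose in model against control. The 8 macrophage markers, led by Lyz2, summed to 125, 226 and 180.3 FPKM in the control livers, 357, 565 and 484 in the model livers, 435, 543 and 416 in the silibinin livers and 676, 660.1 and 352 in the phloridzin livers, and 4 of 8 rose. The 5 cholangiocyte markers, led by Spp1, summed to 10.3, 10.9 and 15.5 FPKM in the control livers, 44.2, 52.6 and 48.1 in the model livers, 46.4, 47.1 and 20.0 in the silibinin livers and 51.3, 24.3 and 22.3 in the phloridzin livers, and both tested markers rose, while the other 3 were under a mean of 0.5 FPKM. The 6 lymphocyte markers, led by Ptprc, summed to 5.63, 8.03 and 7.41 FPKM in the control livers, 18.0, 24.5 and 23.4 in the model livers, 13.3, 19.0 and 17.9 in the silibinin livers and 26.3, 21.4 and 16.7 in the phloridzin livers, with 1 of 4 tested higher and the other two under a mean of 0.5 FPKM. The 6 endothelial markers, led by Clec4g, summed to 31.2 to 84.6 FPKM, and 0 passed. The 5 proliferation markers, led by Top2a, summed to 0.759, 1.45 and 1.70 FPKM in the control livers, 13.8, 11.8 and 14.7 in the model livers, 22.1, 17.5 and 13.2 in the silibinin livers and 76.7, 10.6 and 8.18 in the phloridzin livers, with 2 of 5 higher in model against control. The highest of these proliferation sums was that of the phloridzin liver of replicate 1. Under median ratio scaling 4 stellate cell, 2 macrophage, 1 cholangiocyte, 1 lymphocyte and 1 proliferation marker rose in model against control. By that scaling 1642 of 13079 tested symbols were higher and 1660 were lower. No marker on these lists was at 0 in every liver. With either drug 0 of the macrophage, cholangiocyte, lymphocyte and proliferation markers passed against model, and of the stellate cell markers 1 fell, with phloridzin. Of all symbols, 2.62% were higher and 11.4% lower with silibinin, and 2.5% and 10.4% with phloridzin. The part of these cells in the changes of Mat1a, Mat2a, Cth, Cdo1 and Srm was not tested.

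Among 6049 other tested symbols with a mean of at least 5 FPKM, the genes whose log2 levels over the 12 livers were most like Mat1a by Pearson's r were Plg (0.95), Hrg (0.94), Gnptg (0.94), Phyh (0.93), Sdc4 (0.91). The livers share their groups, so these values describe the pattern over the 12 livers and carry no test.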

How the data were processed

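RNA from the livers of 12 mice, 3 per group, was sequenced. The deposited values are FPKM, which the authors made for 169430 transcripts per liver by scaling for transcript length and library size. Per their processing notes, they used FastQC 0.11.5, HISAT2 2.1.0 and StringTie 1.3.3b with mm10. The silibinin dose was 27.3 mg/kg. Members and lists were chosen with earlier results of these data known.

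The FPKM of all transcripts of a symbol were summed, and log2(sum + 1) was fitted with limma 3.58.1 in R 4.3.3, with a variance trend, group means of 12 livers and 6 contrasts. Symbols with a mean under 0.5 were left out. The test planned for counts was not used, since the unit is FPKM. Passing means a Benjamini-Hochberg adjusted p under 0.05 over 13158 symbols. The fit was tested on simulated data. Log2 ratios and shares were compared by exact permutation in Python 3.11.15 with numpy 2.4.6, pandas 2.3.3 and scipy 1.17.1. Sequences came from GENCODE M21, where 98.1% of the Ensembl transcripts in the table have the same positions, and were aligned with biopython 1.88. Figures used matplotlib 3.10.9. Fragments, 83.7 to 111 M per liver, were recovered from the smallest step between FPKM values, which is worth 1 fragment of a transcript.

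All 10 members are named. Of each pathway list, up to 4 genes with the largest change among those that passed in model against control or a drug against model are named, and of each marker list the most abundant gene. The genes most like Mat1a were ranked by Pearson's r among symbols with a mean of at least 5 FPKM, and the same ranking for Mat2a is not reported here. Alternatives were a pseudocount of 0.1, a minimum mean of 5, no minimum, the transcript with the highest mean alone, median ratio scaling, only the compared groups, a fold change cutoff of 1, a replicate block and each liver left out. After the data were seen, protein-coding transcripts only, voom on the recovered fragments and another count of Mat2a introns were added.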

Additional observations from a re-analysis of the deposited data

Results flagged for a closer look

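NONMMUT050606.2, a transcript of the table that no symbol of the members takes in, lies on the plus strand of chromosome 4 at chr4:148594754-148599771. It starts after the end of ENSMUST00000006611 (chr4:148591503-148594619), which holds 97.4% of the FPKM of Srm, and overlaps only ENSMUST00000140129, which holds 0.323%. It was picked out among transcripts that overlap a member and carry another symbol or none. The rule asked for a group mean of at least 0.5 FPKM and for every liver of that group above every control liver. Its separation of model from control was thus fixed by the choice. It was at 0.367, 0.468 and 0.176 FPKM in the control livers, 1.53, 1.17 and 0.868 in the model livers, 0.136, 0.283 and 0.219 in the silibinin livers and 0.166, 0.115 and 0.196 in the phloridzin livers. The mean was 1.19 FPKM in the model group and 0.337 in the control group, and every model liver was above every other liver, as for Srm. The difference was not tested, and whether its reads come from Srm was not tested.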

How the results depend on the processing

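The members that passed were followed through 22 alternatives, and all kept their direction in each. In several of these the direction could not turn, because the fold change stays the same by construction. These are another minimum mean, only the compared groups, the fold change cutoff and the replicate block. The same holds for leaving out a liver of a group that is not compared. Srm passed in all 22 in model against control and with each drug against model. In model against control Cdo1 passed in 22, Mat2a in 21, Mat1a in 15 and Cth in 9, with an adjusted p of limma for Cth between 0.0075 and 0.14. In silibinin against model Cdo1 passed in 18 and Cth in 17, and in phloridzin against model each passed in 17. Below about 1 fragment per transcript a value cannot be told from 0, which limits the Mat2a transcripts more than the gene sums.

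The count of members that passed in model against control was 5, and it was 3 with no filter on low values and 3 to 6 with a liver left out. In silibinin against model it was 3, and 1 to 4 with a liver left out. In phloridzin against model it was 3, and it was 1 with only the compared groups and 1 to 6 with a liver left out. In silibinin against control it was 1, and it was 0 with the highest transcript alone, 0 with only the compared groups, 0 with a fold change cutoff of 1, 0 with a replicate block and 0 to 2 with a liver left out. In phloridzin against control it was 0, and 1 with median ratio scaling. The cause was not tested.

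Of all symbols, 4594 passed in model against control. With a minimum mean of 5, which tests fewer symbols, 2078 passed, with the highest transcript alone 2657, with a fold change cutoff of 1, which is stricter by construction, 1382, and with a liver left out 3528 to 5198. For silibinin against model 1849 passed, and by the same alternatives 1180, 1082, 526 and 1110 to 2269. In phloridzin against model 1691 passed, and by the same alternatives 1021, 922, 463 and 873 to 2090, with 622 for only the compared groups. In phloridzin against silibinin 3 passed, with 0 at a minimum mean of 5, 5 with the highest transcript alone, 0 with only the compared groups and 1 to 5 with a liver left out. In silibinin against control 661 passed, with 1092 at a pseudocount of 0.1, 185 at a minimum mean of 5, 179 with the highest transcript alone, 261 at a fold change cutoff of 1 and 136 to 1235 with a liver left out. In phloridzin against control 1051 passed, with 269, 313 and 398 by the latter 3 settings, 159 with only the compared groups and 353 to 1280 with a liver left out. The cause of the other differences was not tested.

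With the replicate block 4351, 1664, 1455, 3, 506 and 819 symbols passed in the 6 comparisons, in the order above, and Srm in silibinin against control and Cth in model against control did not pass, at an adjusted p of 0.074 and 0.052. The sample titles give replicate numbers, and the block followed these. The columns of the deposited values carry liver codes with other numbers, which do not match the replicate numbers across groups. The codes were not tried as a block. Over 18 pairs of livers with the same number, the correlation of their deviations from the group means was -0.09 to 0.10. The median was 0.0039, and 1 pair was over 0.1. Over 36 pairs with different numbers it was -0.17 to 0.15, with a median of -0.0059 and 3 pairs over 0.1. Livers with the same number were thus not visibly more alike, and whether any livers were handled together cannot be told from these values.

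Some fold changes that did not pass turned direction, and the cause was not tested. In model against control Mat2b was at -0.91 with the highest transcript alone and -0.27 with median ratio scaling. With a liver left out Gnmt ran from -1.69 to 0.91 in that comparison, above 0 without replicate 2 or 3 of control or replicate 1 of model, and Bhmt from -0.14 to 1.98. For silibinin against model Mat2b was at 0.93 with the highest transcript alone and 0.082 with median ratio scaling, and -0.26 to 0.17 with a liver left out. There Cbs was at -0.054 to 0.33 with a liver left out, and Bhmt at -0.20 with the highest transcript alone or with protein-coding transcripts only and -1.16 to 1.00 with a liver left out. For phloridzin against model, with a liver left out, Mat2b was at -0.017 to 0.21 and Cbs at -0.088 to 0.52.

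The Mat1a to Mat2a log2 ratio in model minus control was -2.47, and -2.54 to -2.37 with a liver left out, where the exact permutation p over the 4 groups was 0.00039 to 0.061. The Mat2a share in transcripts with a retained intron was -15.9 in model minus control, and -18.6 to -13.6 with a liver left out, where the exact permutation p was 0.0094 to 0.11. With the transcript that keeps the last intron also counted it was 2.78, where that transcript held 51.0% of the FPKM of Mat2a, and the cause was not tested.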
